A study of Mus musculus with 12 samples.

Results

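Genes that supply ubiquitin or pull ubiquitin-tagged proteins out of complexes and membranes were followed across 4 groups of AML12 cells, an immortalized line of mouse hepatocytes. They were chosen by symbol, 8 of 24824 genes in the expression table: Ubb, Uba1, Usp14, Vcp, Nploc4, Ufd1, Zfand2a and Stub1. Group A was kept in standard medium. Group B received Cu/ES, which was 300 μM CuCl2 with 40 nM elesclomol (ES), a copper ionophore that carries the metal into cells. Group C received the same Cu/ES with 1000 μM taurocholic acid (TCA), a conjugated bile acid, and group D received 1000 μM TCA alone. All groups were harvested at 24 h, with 3 libraries each, and the study asked what copper loading does to these cells and whether the bile acid alters it. Poly(A) RNA was sequenced to between 29115011 and 34912748 reads assigned to genes per library in groups B and C and between 38298857 and 39782142 in groups A and D, and each of the 8 genes had at least 1202 reads in each library. The labels do not say whether libraries of a group came from separate cultures, so p-values measure the spread between these libraries, which may be technical.

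Cells mark proteins for destruction by building chains of ubiquitin on them. An activating enzyme (E1) charges ubiquitin, a conjugating enzyme (E2) carries it, and a ligase (E3) chooses the substrate. Chains are read by the proteasome, where deubiquitinases remove and recycle ubiquitin before the substrate is threaded in. Substrates held in membranes or tight assemblies are first unfolded and extracted by p97, a hexameric ATPase that works with a pair of ubiquitin-binding partners. In hepatocytes, which make and secrete large amounts of protein, this route serves the quality control of the endoplasmic reticulum. Ubb encodes ubiquitin as a head-to-tail string of repeats, Uba1 is the main E1, and Usp14 is a deubiquitinase of the proteasome's regulatory particle. Vcp encodes p97 itself, Nploc4 and Ufd1 encode its paired partners Npl4 and Ufd1, Zfand2a encodes an arsenite-inducible protein that associates with the proteasome, and Stub1 encodes CHIP, an E3 ligase docked on the chaperones Hsp70 and Hsp90.

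Because several of the genes moved together, the start-site regions of the RefSeq promoter table (build GRCm38.p6, whereas the submitters' notes name GRCm39) were searched for the GAA and TTC units that heat shock factors bind. The windows ran from 250 bases before to 50 bases after each start, and 7 of the 8 genes had at least 1, in 10 windows. The searched letters were GAANNTTC and TTCNNGAA, each its own reverse complement, and the runs GAANNTTCNNGAA and TTCNNGAANNTTC, which contain both short forms. Either short form stood in 15.06% of all 32851 windows and a 3-unit run in 0.6%. Of the 7 genes, 4 held a short form (Zfand2a, Nploc4, Vcp and Stub1), and Nploc4 held the 3-unit run. This count is per gene, whereas the shares are per window and a gene can have more than 1, so the 2 are not directly comparable. The stretches below are shown for the 2 genes with the strongest rise (Zfand2a and Ubb) and for the p97 genes that held a match, 5′ to 3′ on the strand of the gene, with matches in capitals.
Zfand2a, chr5:139484592-139484741, minus strand, 250 to 101 bases before the start: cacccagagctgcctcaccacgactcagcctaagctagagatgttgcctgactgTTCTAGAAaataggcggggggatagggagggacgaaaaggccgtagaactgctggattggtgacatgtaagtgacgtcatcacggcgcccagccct
Nploc4, chr11:120437801-120437950, minus strand, 250 to 101 bases before the start: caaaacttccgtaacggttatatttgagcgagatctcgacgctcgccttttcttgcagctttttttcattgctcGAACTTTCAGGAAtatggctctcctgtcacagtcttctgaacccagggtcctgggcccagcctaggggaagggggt
Vcp, chr4:43000508-43000757, minus strand, 250 to 1 bases before the start: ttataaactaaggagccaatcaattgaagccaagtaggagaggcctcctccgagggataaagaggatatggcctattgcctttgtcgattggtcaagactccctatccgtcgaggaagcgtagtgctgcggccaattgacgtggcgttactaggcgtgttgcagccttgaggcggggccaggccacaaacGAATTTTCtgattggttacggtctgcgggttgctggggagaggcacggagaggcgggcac
Ubb, chr11:62550921-62551170, plus strand, 250 to 1 bases before the upstream of its 2 starts: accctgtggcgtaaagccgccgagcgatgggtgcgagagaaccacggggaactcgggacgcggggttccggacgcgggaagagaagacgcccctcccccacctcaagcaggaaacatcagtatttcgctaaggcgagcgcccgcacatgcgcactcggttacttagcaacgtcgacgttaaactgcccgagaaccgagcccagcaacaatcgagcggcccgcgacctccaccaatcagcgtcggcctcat

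The match began 196 bases before the start in Zfand2a, 176 bases before it in Nploc4 and 60 bases before it in Vcp, and Stub1 held GAAGCTTC from 123 to 116 bases before its start. No window of Ubb, Uba1 or Ufd1 held these letters. A match of letters is a description of the window and was not tested as a binding site.

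The cell identity of the line was checked against marker genes. Of 10 hepatocyte markers listed, 7 were rows of the table, and the defining Alb, Apob and Hnf4a were at or near 0 FPKM in all 4 groups (FPKM, fragments scaled to transcript length and library size), whereas the keratins Krt8 and Krt18 averaged 344 and 285 FPKM in group A and 183 and 81.9 FPKM in group B. The summed level of the 7 hepatocyte markers lay between 598 and 651 FPKM in group A and between 243 and 295 in group B. Krt8 and Krt18 made up most of it. Apoe and Apoa1 went the other way, from means of 1.73 and 0.00863 FPKM in group A to 7.96 and 1.86 in group B. The summed level of the 6 stellate cell or fibroblast markers lay between 140 and 206 FPKM in group A and between 3.44 and 5.76 in group B. Most of it in group A was Col3a1, whose mean went from 138 to 2.20 FPKM. Col1a2 and Acta2 were higher in group B, at means of at most 0.36 FPKM. The sum of the 4 cholangiocyte markers lay between 230 and 326 FPKM in group A and between 111 and 140 in group B, in which Krt19 went from a mean of 268 to 77.3 FPKM and Sox9 from 10.6 to 50.9 FPKM. That of the 4 endothelial markers lay between 0.922 and 1.16 in group A and between 6.79 and 10.5 in group B. Pecam1 made up most of the endothelial rise, from a mean of 0.214 to 6.85 FPKM. The 4 macrophage markers summed to at most 0.63 FPKM in any library. The part of these shifts in the values below was not tested, and fewer cells of a kind cannot be told apart from less RNA per cell.

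Cu/ES raised 5 of the 8 genes past both thresholds, an adjusted p under 0.05 and a log2 fold change beyond 1, and lowered 1. Zfand2a rose most, to 20.1 times its control level, followed by Ubb at 12.1 times, Ufd1 at 3.63 times, Vcp at 3.48 times and Usp14 at 2.09 times. Nploc4 passed the adjusted p with 1.95 times its control level, Stub1 fell to 0.473 of it, and Uba1 stood at 1.04 times. Across the 10615 genes tested, 10.1% were called higher and 53.0% lower by the same rule. By the adjusted p alone 6 of the 8 were higher and 1 lower, where 20.1% of all genes were higher and 72.0% lower. The median log2 fold change was 1.41 over the 8 genes and -1.10 over all genes tested, and 92.9% of all genes had groups that did not overlap. The log2 fold changes were differences of log2(FPKM + 1) from limma, fitted over all 12 libraries, with p-values adjusted by the Benjamini-Hochberg method. For a single gene the smallest two-sided exact permutation p with 3 against 3 libraries is 0.1.

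**Figure D1:**
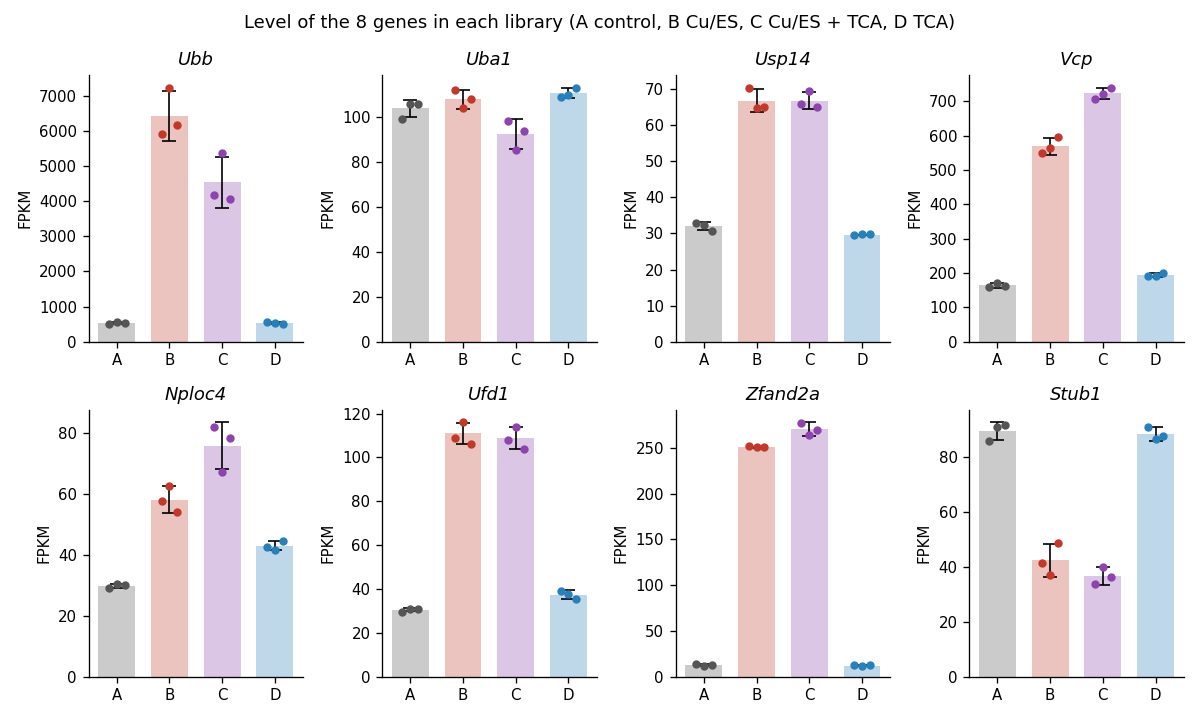
FPKM (y axis, from 0) of each of the 8 genes in groups A, B, C and D (x axis). Dots are the 3 libraries, bars the mean and whiskers the SD. Zfand2a and Ubb are low in A and D and high in B and C, Uba1 stays between 85.3 and 113 FPKM in the 12 libraries, and Stub1 is high in A and D and low in B and C.

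The scale of the libraries bears on each of these directions, since the typical gene itself fell in group B. Relative to the median gene, Stub1 lay 0.03 above it and Uba1 1.16 above it in B against A. With each library rescaled by the median ratio to a common reference, the median gene moved to -0.03, 25.9% of all genes were then called higher and 25.5% lower, and 7 of the 8 genes were called higher and 0 lower, with Stub1 at 0.20 (limma adjusted p = 0.0907) and Uba1 at 1.33 (limma adjusted p = 6.40e-11). With TPM (each library scaled to a fixed sum of length-corrected values), 4 genes were called higher and 1 lower, against 7.98% and 63.3% of all genes. Uba1 then stood at -0.31 (limma adjusted p = 0.002) and Usp14 at 0.68. With quantile normalization, 6 were called higher and 0 lower, against 20.7% and 22.2% of all genes, and Uba1 stood at -0.13 (limma adjusted p = 0.0722). Ubb, Usp14, Vcp, Nploc4, Ufd1 and Zfand2a were above 0 under each of these scalings, whereas the directions of Uba1 and Stub1 against group A depended on the scaling.

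**Figure D2:**
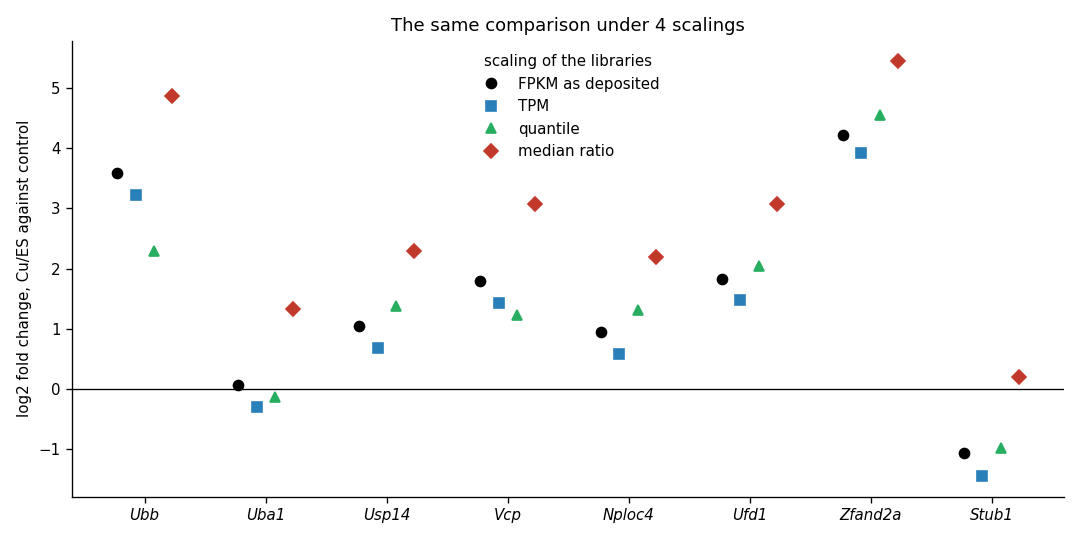
Log2 fold change of Cu/ES against control (y axis) for the 8 genes (x axis) under 4 scalings of the libraries: FPKM as deposited (circles), TPM (squares), quantile normalization (triangles) and median ratio (diamonds). Ubb, Usp14, Vcp, Nploc4, Ufd1 and Zfand2a stay above 0 under the 4 scalings, Uba1 lies at 0.06, -0.31, -0.13 and 1.33, and Stub1 at -1.07, -1.45, -0.98 and 0.20.

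Ubb, the polyubiquitin gene, was read at 492, 572 and 531 FPKM in the control libraries and at 5900, 7230 and 6160 FPKM with Cu/ES. The groups did not overlap, and the log2 fold change was 3.59 (SE 0.11, limma adjusted p = 6.15e-13), rank 62 of 10615 from the top. It was 2.30 with quantile normalization and 4.88 with median-ratio scaling. By level, Ubb moved from rank 101 to rank 9 of the genes tested, and its share of all reads went from 0.0667% ± 0.00498 (SD, n = 3) to 0.807% ± 0.0891. With Cu/ES and TCA the 3 libraries held 4180, 5370 and 4050 FPKM, each below each of the Cu/ES libraries, a log2 fold change of -0.51 against group B (SE 0.11, limma adjusted p = 0.00169), and of -0.18 with quantile normalization (limma adjusted p = 0.0194). TCA alone gave 552, 543 and 507 FPKM, which overlapped the control libraries (0.01, 95% interval -0.24 to 0.26, limma adjusted p = 0.978). Replicate 2 was the highest library of both groups B and C. The ubiquitin repeats of Ubb are nearly alike in sequence to one another and to other ubiquitin sequences, and how multi-mapped reads were counted was not given in the sources used here, so the level of this gene is uncertain.

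Uba1, the E1 that charges this ubiquitin, was read at 99.2, 106 and 106 FPKM in group A and 112, 104 and 108 FPKM in group B. The groups overlapped, and the log2 fold change was 0.06 (95% interval -0.09 to 0.21, limma adjusted p = 0.376). Groups C and D held 98.4, 85.3 and 93.9 FPKM and 109, 110 and 113 FPKM. Uba1 was lower with Cu/ES and TCA than with Cu/ES (-0.22, SE 0.06, limma adjusted p = 0.0113) and than with TCA alone (-0.26, limma adjusted p = 0.00143). The first of these passed narrowly: the limma adjusted p was 0.0521 without replicate 1 of group B, 0.148 with TPM and 0.0882 with quantile normalization. The second had the other sign, 0.99, with median-ratio scaling. The ratio of Ubb to Uba1 was 5.13 ± 0.242 in controls, 59.7 ± 8.82 with Cu/ES, 49.5 ± 11.7 with Cu/ES plus TCA and 4.82 ± 0.313 with TCA alone. In this ratio groups A and B did not overlap (exact permutation p = 0.1). Groups B and C overlapped (exact permutation p = 0.3), as did groups A and D (exact permutation p = 0.4).

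Usp14, the proteasome's deubiquitinase, was read at 32.9, 32.3 and 30.8 FPKM in group A and at 70.4, 64.7 and 65.1 FPKM in group B. The groups did not overlap, with a log2 fold change of 1.04 (SE 0.06, limma adjusted p = 3.39e-10), just past the threshold of 1, which it did not pass with TPM or without replicate 1 of group B. Groups C and D held 65.9, 69.5 and 65.0 FPKM and 29.5, 29.7 and 29.7 FPKM. TCA made no difference to Usp14 that passed the test, either with Cu/ES (0.00, 95% interval -0.13 to 0.14) or alone (-0.11, 95% interval -0.24 to 0.03). Psmd14, another deubiquitinase of the same particle, rose from 128 ± 5.90 to 264 ± 8.84 FPKM with Cu/ES (1.03, limma adjusted p = 5.11e-09), while the third, Uchl5, stood at 11.7 ± 0.965 and 10.9 ± 0.107 FPKM (-0.10, limma adjusted p = 0.257). Both were named after their values were seen.

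The 3 genes of the p97 complex rose with Cu/ES to different extents. Vcp was read at 159, 171 and 161 FPKM in group A and at 548, 563 and 596 FPKM in group B (log2 fold change 1.79, SE 0.06, limma adjusted p = 1.00e-12). Ufd1 was read at 29.6, 31.0 and 30.7 FPKM in group A and at 109, 116 and 106 FPKM in group B (1.83, SE 0.06, limma adjusted p = 1.91e-12). Nploc4 was read at 29.0, 30.3 and 30.2 FPKM in group A and at 57.6, 62.6 and 54.0 FPKM in group B (0.94, SE 0.08, limma adjusted p = 2.86e-08), just short of the threshold of 1. For each of the 3 the lowest group B library was above the highest group A library.

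Npl4 and Ufd1 act as a pair on p97, and their genes stood at the same level per length in the controls and apart after copper. The ratio of Ufd1 to Nploc4 was 1.02 in each of the 3 control libraries, and it was 1.90, 1.85 and 1.97 with Cu/ES. It was 1.32, 1.69 and 1.33 with Cu/ES and TCA, and 0.920, 0.909 and 0.793 with TCA alone, so that no 2 of the 4 groups that were compared overlapped (exact permutation p = 0.1 for B against A, C against B, D against A and C against D). The ratio of Vcp to Nploc4 was 5.48 ± 0.166 in controls, 9.85 ± 1.07 with Cu/ES, 9.60 ± 1.04 with Cu/ES plus TCA and 4.51 ± 0.0619 with TCA alone. Vcp to Ufd1 was 5.38 ± 0.141 in controls and 5.16 ± 0.388 with Cu/ES, which overlapped (exact permutation p = 0.4), and 6.66 ± 0.412 with Cu/ES plus TCA, above the Cu/ES libraries. Ratios of genes within a library do not depend on a factor that scales the whole library. A difference between libraries that varies with transcript length would not cancel in them. The lengths recovered with the reads were 4729 bases for Nploc4, 3315 for Vcp and 2179 for Ufd1. In group C the ratio of Ufd1 to Nploc4 was highest in replicate 2, at 1.69. Whether length plays a part in these ratios was not tested.

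**Figure D3:**
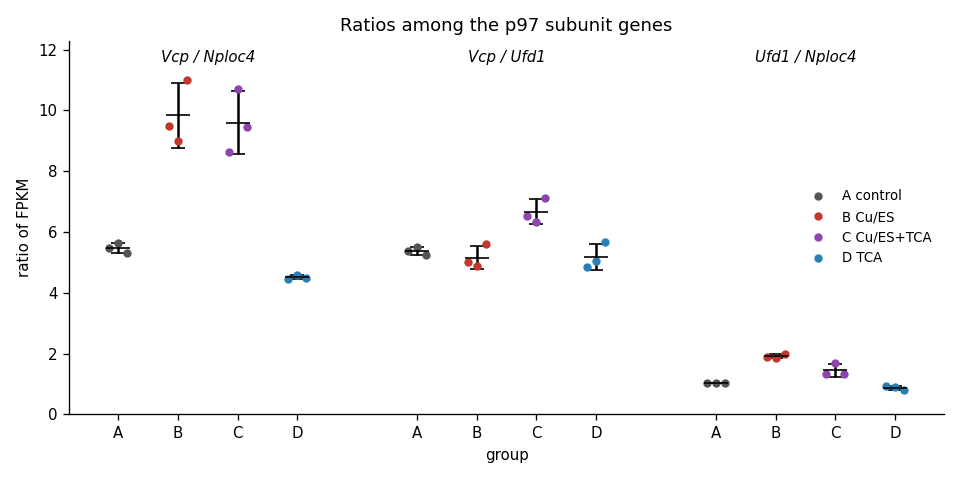
Ratios of FPKM (y axis, from 0) between Vcp, Nploc4 and Ufd1 in groups A, B, C and D (x axis), with dots for the 3 libraries, a dash for the mean and whiskers for the SD. Ufd1 over Nploc4 goes from 1.02 in A to a mean of 1.91 in B, and Vcp over Ufd1 overlaps between A and B.

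TCA raised p97 genes without copper as well. In D against A, 0 of the 8 genes passed both thresholds (limma, 3 at an unadjusted p under 0.05, and 0 by limma-voom on recovered reads), and 0.217% of all genes did. By the adjusted p alone 3 of 8 were higher and 0 lower, with 10.5% of all genes higher and 11.5% lower, and the 3 were Nploc4, Ufd1 and Vcp. Nploc4 held 42.7, 41.6 and 44.5 FPKM in group D, above each control (log2 fold change 0.51, SE 0.08, limma adjusted p = 8.07e-04), rank 252 of 10615 from the top. Ufd1 held 39.2, 37.8 and 35.3 FPKM (0.29, SE 0.06, limma adjusted p = 0.00575). Vcp held 190, 190 and 200 FPKM (0.24, SE 0.06, limma adjusted p = 0.00965, and 0.0511 without replicate 3 of group D). Groups D and A did not overlap for these 3 genes, nor for Uba1 and Usp14, which did not pass the test, and 44.2% of all genes had groups that did not overlap.

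Added to Cu/ES, TCA raised 2 of the 8 genes and lowered 2 by the adjusted p, where 20.4% of all genes were higher and 23.6% lower. Past both thresholds there were 0 of 8 (limma, 5 at an unadjusted p under 0.05, and 0 by limma-voom), against 2.29% of all genes. Vcp held 708, 721 and 740 FPKM in group C, above each group B library (log2 fold change 0.35, SE 0.06, limma adjusted p = 2.82e-04). Nploc4 held 82.0, 67.3 and 78.3 FPKM, likewise above group B (0.38, SE 0.08, limma adjusted p = 0.0015). Ufd1, at 108, 114 and 104 FPKM, overlapped group B (-0.02, 95% interval -0.17 to 0.12, limma adjusted p = 0.794). The 2 genes that fell were Ubb and Uba1, with the values given above.

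Comparisons C against B and D against A share no library, so the TCA effect could be compared between the copper-loaded and the unloaded cells. The difference of the 2 effects passed the adjusted p for 3 of the 8 genes, each lower, and for 17.7% of all genes higher and 19.8% lower, and 0 of 8 passed both thresholds (limma, 3 at an unadjusted p under 0.05, and 0 by limma-voom) against 3.49% of all genes. The 3 genes were Ubb (-0.52, SE 0.15, limma adjusted p = 0.0167), Uba1 (-0.32, SE 0.09, limma adjusted p = 0.0135) and Ufd1 (-0.31, SE 0.09, limma adjusted p = 0.0138). With quantile normalization or with TPM 1 of the 8 passed. The difference for Vcp was 0.11 (95% interval -0.08 to 0.29) and for Nploc4 -0.13 (95% interval -0.39 to 0.12).

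**Figure D4:**
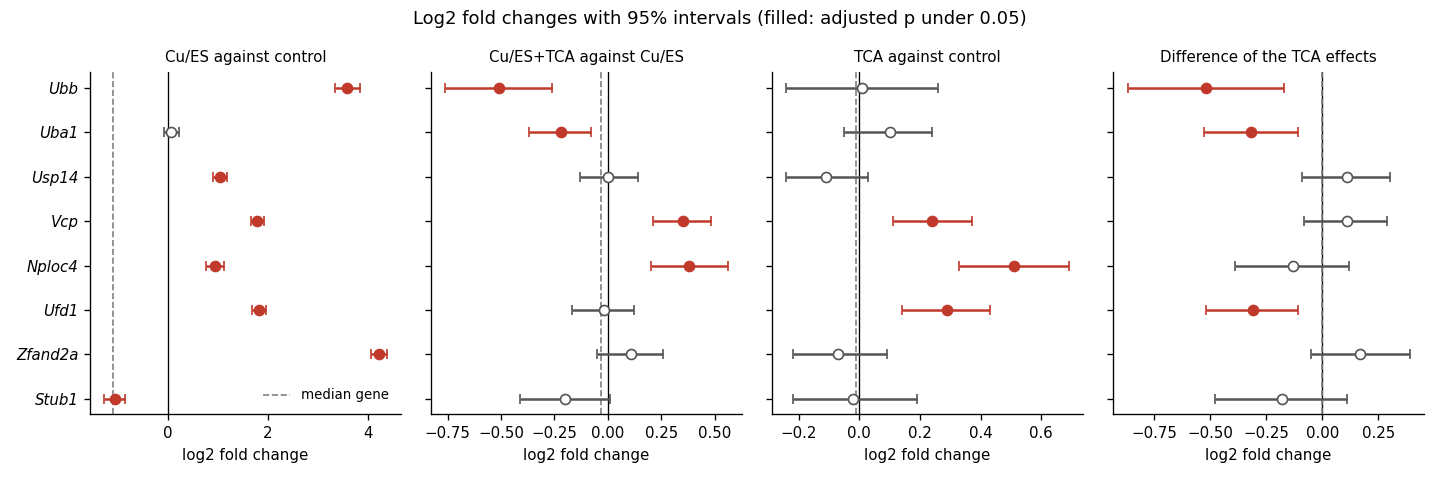
Log2 fold change (x axis) with its 95% interval for the 8 genes (y axis) in B against A, C against B, D against A and for the difference of the TCA effects, each panel on its own scale. Filled red points passed an adjusted p of 0.05, and the dashed line is the median gene. Vcp and Nploc4 are above 0 in both TCA comparisons, Ufd1 only in D against A, and Ubb is below 0 in C against B.

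Zfand2a, the arsenite-inducible gene, was read at 13.2, 11.4 and 13.0 FPKM in group A and at 252, 251 and 251 FPKM in group B. Its log2 fold change of 4.23 (SE 0.07, limma adjusted p = 7.68e-15) was rank 37 of 10615 from the top, and by level the gene moved from rank 4929 to rank 291. Groups C and D held 278, 264 and 270 FPKM and 12.1, 11.0 and 12.5 FPKM. The group C libraries were each above the group B libraries, by 0.11 on the log2 scale (95% interval -0.05 to 0.26, limma adjusted p = 0.225), and 49.2% of all genes had groups B and C that did not overlap. Group D overlapped group A (-0.07, 95% interval -0.22 to 0.09).

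Stub1, the chaperone-docked ligase, was read at 85.5, 90.6 and 91.5 FPKM in group A and at 41.2, 36.9 and 48.6 FPKM in group B. The log2 fold change of -1.07 (SE 0.09, limma adjusted p = 3.34e-08) was close to the -1.10 of the median gene, and the gene stood at rank 5205 of 10615 from the top. Leaving out replicate 2 of group B moved it to -0.98, inside the threshold of 1. Groups C and D held 33.5, 39.9 and 36.3 FPKM and 90.9, 86.3 and 87.4 FPKM. C against B gave -0.20 (95% interval -0.41 to 0.01, limma unadjusted p = 0.0465, limma adjusted p = 0.0924). It passed the adjusted p without replicate 2 of group B (limma adjusted p = 0.0193) or replicate 2 of group C (limma adjusted p = 0.0319). D against A gave -0.02 (95% interval -0.22 to 0.19).

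In C against D, the copper effect in the presence of TCA, 5 of the 8 genes were called higher and 1 lower past both thresholds, where 11.2% of all genes were higher and 53.3% lower. By the adjusted p alone 6 were higher and 2 lower, against 20.9% and 71.5% of all genes. Zfand2a stood at 4.40, Ubb at 3.07, Vcp at 1.90, Ufd1 at 1.51, Usp14 at 1.14 and Nploc4 at 0.80 on the log2 scale, each with a limma adjusted p of at most 1.60e-07, and Stub1 at -1.25 (limma adjusted p = 5.35e-09). With median-ratio scaling 6 were called higher and 0 lower, against 25.9% and 27.2% of all genes, and Stub1 stood at -0.01.

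Some of the 8 genes overlap other genes on the opposite strand in GENCODE M21, and whether reads were counted by strand was not given in the sources used here, so reads of such partners cannot be told apart. Stub1 overlaps Jmjd8, which went from 12.2 ± 0.849 FPKM in group A to 1.61 ± 0.331 in group B. Ufd1 overlaps Cdc45, which went from 12.1 ± 0.0974 to 27.2 ± 0.993 FPKM, and Usp14 overlaps Thoc1, which went from 9.59 ± 0.296 to 13.4 ± 2.37 FPKM. Vcp overlaps 1700022I11Rik. Ubb, Uba1, Nploc4 and Zfand2a overlap no other gene there.

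The wider families were counted in B against A past both thresholds, as listed genes with a mean of at least 1 FPKM. Among all genes tested, 10.1% were higher and 53.0% lower by this rule, and 25.9% and 25.5% with median-ratio scaling. Differences between a list and all genes were not tested. For 5 of the lists the sign of the median depended on the scaling: with median-ratio scaling the medians were 0.35 for E2 genes, 0.64 for deubiquitinases, 0.92 for p97 and its cofactors, 0.21 for quality control E3 genes and 0.01 for endoplasmic reticulum-associated degradation. The E1 median was below 0 under the 4 scalings and stood at -0.40 with median-ratio scaling. Of 8 E1 genes tested, 0 were higher and 5 lower, the median stood at -1.62 on the log2 scale, and Uba1 was the second highest. Uba3, the catalytic subunit of the NEDD8 E1, went from 47.3 ± 2.42 to 8.04 ± 0.574 FPKM (-2.42, limma adjusted p = 6.15e-13), and Uba6, the other E1 for ubiquitin, from 11.0 ± 0.406 to 1.57 ± 0.264 FPKM (-2.23, limma adjusted p = 4.79e-10). Of 31 E2 genes, 2 were higher and 14 lower with a median of -0.79. Ube2g2, an E2 of endoplasmic reticulum quality control, rose from 46.5 ± 4.01 to 136 ± 11.8 FPKM and Ube2f from 12.9 ± 0.420 to 34.4 ± 1.39 FPKM. Ube2c, an E2 of mitosis, fell from 176 ± 11.7 to 15.6 ± 1.47 FPKM and Ube2l6, an E2 for the ubiquitin-like ISG15, from 24.4 ± 5.02 to 0.939 ± 0.618 FPKM. With median-ratio scaling the counts were 2 higher and 3 lower for E1 genes and 14 higher and 5 lower for E2 genes.

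Past both thresholds in B against A, 10.1% of all genes were higher and 53.0% lower. Of 30 genes of p97 and its cofactors tested, 3 were higher and 9 lower, with a median of -0.25. The 3 were Vcp, Ufd1 and Ubxn4, an adaptor that holds p97 at the endoplasmic reticulum and rose from 27.2 ± 0.261 to 104 ± 2.45 FPKM (1.89, limma adjusted p = 1.94e-12). Derl2, a channel component of endoplasmic reticulum-associated degradation, fell from 23.5 ± 1.52 to 2.26 ± 0.228 FPKM (-2.91, limma adjusted p = 5.41e-13). Median-ratio scaling gave 13 higher and 5 lower on the p97 list, against 25.9% and 25.5% of all genes. Of 25 genes of endoplasmic reticulum-associated degradation, 3 were higher and 15 lower (9 and 7 with median-ratio scaling), with a median of -1.24. Edem2, which acts on the glycans of misfolded proteins, fell from 49.6 ± 1.81 to 2.92 ± 0.233 FPKM.

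In D against A, 8 of the 30 genes of the p97 list were higher and 1 lower by the adjusted p alone, where 10.5% of all genes were higher and 11.5% lower. In C against B, 13 were higher and 4 lower, where 20.4% of all genes were higher and 23.6% lower, and the difference between the list and all genes was not tested. In both, 5 genes were higher, 62.5% of the 8 and 38.5% of the 13, where among all genes tested 300 were higher in both, 26.9% of 1114 and 13.9% of 2166. The 5 were Vcp, Nploc4, Selenos, Syvn1 and Ubxn8, of which the last 3 sit at the endoplasmic reticulum membrane and are named here after their values were seen. The list holds Vcp, Nploc4 and Ufd1, already given above, so these counts are not separate from those of the 8 genes studied. All 3 were among the list genes higher in D against A, and Vcp and Nploc4 were also higher in C against B. Syvn1, the ligase at the core of endoplasmic reticulum-associated degradation, averaged 24.2, 43.5, 63.7 and 29.2 FPKM in groups A, B, C and D. Selenos averaged 56.6, 67.8, 88.0 and 73.7 FPKM in the same order.

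In B against A, 10.1% of all genes were higher and 53.0% lower past both thresholds (25.9% and 25.5% with median-ratio scaling). Of 75 genes on the deubiquitinase list, 10 were higher and 31 lower with a median of -0.44 (28 and 11 with median-ratio scaling), so that Usp14 was 1 of the 10. The list was drawn partly by symbol pattern and takes in Usp6nl, which is not a deubiquitinase. Usp6nl was among the 31 lower (-1.62, limma adjusted p = 1.11e-09). Uchl1 rose from 1.48 ± 0.0366 to 19.6 ± 1.20 FPKM and Usp49 from 3.02 ± 0.415 to 17.5 ± 1.36 FPKM, and Usp48 fell from 19.4 ± 0.509 to 2.17 ± 0.291 FPKM. Of 13 genes for proteasome ubiquitin receptors, shuttles and deubiquitinases, 6 were higher and 4 lower with a median of 0.61 (9 and 0 with median-ratio scaling). Adrm1, the receptor Rpn13, rose from 49.0 ± 1.77 to 346 ± 14.8 FPKM (2.79, limma adjusted p = 7.67e-14) and Sqstm1, the shuttle and autophagy receptor p62, from 286 ± 15.2 to 2030 ± 128 FPKM (2.83, limma adjusted p = 1.40e-12). Ubqln2, a shuttle, fell from 30.9 ± 1.70 to 7.95 ± 1.37 FPKM. In C against B 1 gene of this list passed both thresholds, where 2.29% of all genes did. It was Tollip, an endosomal ubiquitin receptor, which went from 34.0 ± 5.63 FPKM in group B to 74.8 ± 14.6 FPKM in group C (1.11, limma adjusted p = 2.84e-05). The group C libraries held 84.5, 58.0 and 81.9 FPKM.

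The shares of all genes for the 2 lists that follow were again 10.1% higher and 53.0% lower (25.9% and 25.5% with median-ratio scaling). Of the 7 ZFAND genes, 3 were higher and 3 lower with a median of 0.67 (4 and 1 with median-ratio scaling). Zfand5, which activates the proteasome, rose from 11.7 ± 0.316 to 48.6 ± 1.03 FPKM. Zfand2b, the closest relative of Zfand2a, fell from 9.91 ± 0.958 to 2.53 ± 0.642 FPKM (-1.64, limma adjusted p = 5.86e-08), the direction opposite to Zfand2a, and its value with median-ratio scaling was -0.58. Of 26 quality control E3 genes, 1 was higher and 14 lower with a median of -1.05 (6 and 5 with median-ratio scaling), which placed Stub1 beside the middle of its list. Rnf185, a membrane ligase, rose from 17.9 ± 0.448 to 49.2 ± 3.62 FPKM, and Ube3a fell from 14.8 ± 2.03 to 1.43 ± 0.101 FPKM.

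**Figure D5:**
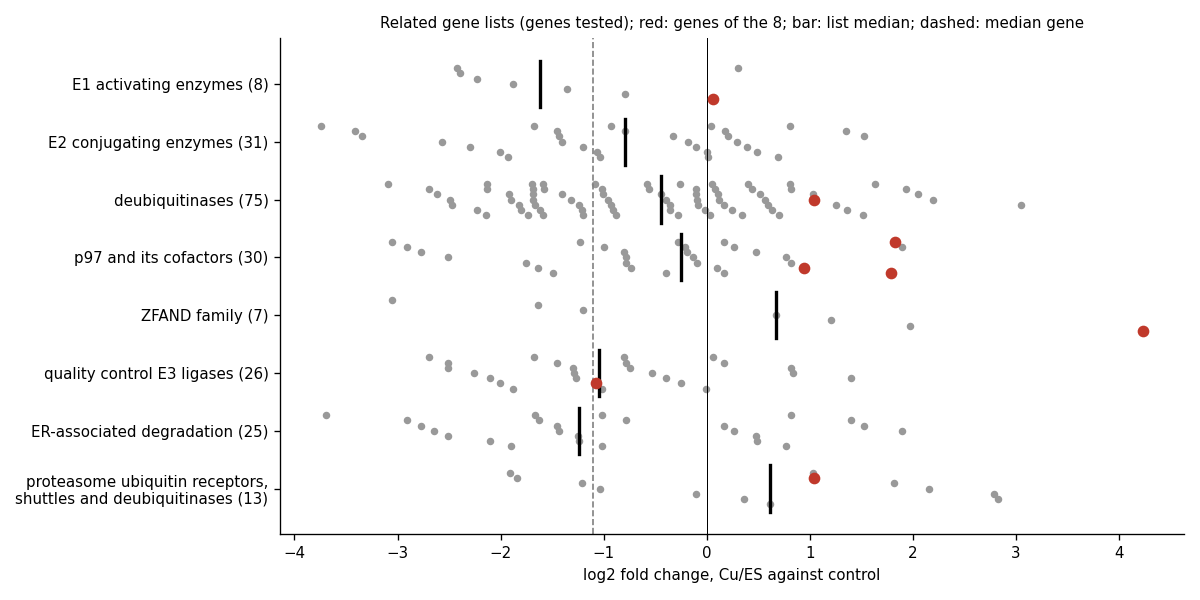
Log2 fold change of Cu/ES against control (x axis) for each tested gene of 8 related lists (y axis, number tested in brackets). Red points are those of the 8 genes that a list holds, black bars the list medians and the dashed line the median gene at -1.10. Zfand2a is the highest point of its list, and Stub1 lies next to its list's median.

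Among the 8 genes the profiles over the 12 libraries were compared as the root mean square difference of log2(FPKM + 1) after the control mean was taken off, a description with no test in which libraries of a group share their treatment. Vcp and Ufd1 were nearest to each other (0.19), Nploc4 and Usp14 came next (0.36), and Ubb and Zfand2a were 0.72 apart. Of 6878 genes with a mean of at least 5 FPKM, the nearest to Ubb were Hsp90aa1 (0.09), which encodes the inducible Hsp90, Lce1d (0.20) and Dnajb9 (0.23). The nearest to Ufd1 were Cct3 (0.08), a subunit of the chaperonin TRiC, Psmb2 (0.09), a subunit of the proteasome core, and Eif4a3 (0.09). Vcp had Tax1bp1 (0.10), an autophagy receptor, Mettl2 (0.10) and Gtf2f1 (0.11), and Zfand2a had P2rx7 (0.15), Taf7 (0.19) and Pnp2 (0.22). Usp14 had Rps6, Tomm20 and Cstb (each 0.08), Nploc4 had Rbm15b (0.10), Fads3 (0.12) and Sh3bp5l (0.13), Uba1 had Pls3 and Lrrfip1 (each 0.07) and Serinc1 (0.08), and Stub1 had Incenp (0.08), Uqcrfs1 (0.09) and Mpdu1 (0.10).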

How the data were processed

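RNA from 12 libraries (groups A, B, C and D, 3 each) was measured. The authors deposited one table of FPKM per gene, and the submitters' processing notes name fastp, HISAT2, HTSeq and build GRCm39, with no role. The annotation and the treatment of strand and multi-mapped reads were not given in the sources used here. Whole reads could be recovered from the spacing of the deposited FPKM (22212 of 22212 genes above 0 in at least 2 libraries were whole within 0.01 read), which gave the depths. FPKM are not counts, so the 10615 genes averaging 1 FPKM or more were tested as log2(FPKM + 1) with limma 3.58.1 (R 4.3.3) over the 4 groups with a mean-variance trend, 8 residual degrees of freedom and Benjamini-Hochberg adjustment. Fold changes on this scale understate those of low genes. Calls needed an adjusted p under 0.05, and past both thresholds also a log2 fold change beyond 1. Ratios were compared by exact permutation tests. The code was checked on simulated data. Alternatives were limma-voom on the recovered reads, TPM, median-ratio and quantile scaling, a pseudocount of 0.1, a minimum FPKM of 5 or none, no trend, only the groups compared, a replicate block and each library left out. The labels name no shared batch. The deviations of same-numbered libraries of groups A and B from their group means correlated at 0.142 to 0.174 (3 pairs). Those of different numbers correlated at -0.131 to 0.004 (6 pairs). Deviations cancel within a group, so these ranges are not independent, and whether the numbers mark pairs was not tested. In each list the 2 largest rises and falls past both thresholds with a mean of at least 5 FPKM and no overlap between groups were named for B against A and C against B. The 8 genes, the lists and the motif were chosen with earlier results of these data known. Promoter stretches are from RefSeq. No protein sequences were used here. Some genes of the lists are not reported here by name.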

Additional observations from a re-analysis of the deposited data

Results flagged for a closer look

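The effect of TCA differed between copper-loaded and unloaded cells for 3 of the 8 genes by the interaction term, each lower. By the same adjusted p 17.7% of all genes were higher and 19.8% lower, so by count the 8 genes were not set apart. For Ubb the difference was -0.52 on the log2 scale, made of -0.51 with Cu/ES and 0.01 without. For Uba1 it was -0.32, made of -0.22 with Cu/ES and 0.10 without, and for Ufd1 it was -0.31, made of -0.02 with Cu/ES and 0.29 without. The median gene stood at 0.00. Under quantile normalization or TPM 1 of the 8 genes passed. Why the effects differed was not tested.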

How the results depend on the processing

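Of 680 log2 fold changes of single genes recomputed under the alternatives, 651 kept their sign and their side of an adjusted p of 0.05. The sign turned in 16, of which 13 passed the adjusted p in neither fit, the adjusted p was crossed in 15, and the call by both thresholds changed in 12, for Uba1, Usp14, Nploc4 or Stub1 in B against A or C against D. Under TPM, Uba1 in B against A turned to -0.31. Under median-ratio scaling, Stub1 in B against A turned to 0.20 and Uba1 in C against D to 0.99. The interaction was passed by 3 genes, and by 1 under quantile normalization and 1 under TPM. Ubb missed it with no filter on low values (limma adjusted p = 0.0718) and under quantile normalization (0.0782), Uba1 under quantile normalization (0.149) and TPM (0.121), and Ufd1 under TPM (0.0557). With single libraries left out, the genes past both thresholds numbered 5 to 6 in B against A, and those past the adjusted p 3 to 5 in C against B and 2 to 3 in D against A. With a replicate block the counts past both thresholds stayed at 6 in B against A and 0 in C against B, and no call among the 8 genes changed. Outside the comparison of groups A and B, not every same-numbered pair was over 0.1. Deviations from the group means correlated at 0.005 to 0.277 between B and C, 0.087 to 0.579 between A and D and -0.171 to 0.110 between C and D. Different-numbered pairs of A and D reached 0.367, so pairing by number was not established. Depth was no limit for these genes, which had at least 1202 reads, but the shift of the median gene from -1.10 to -0.03 between scalings limits what can be said of Uba1 and Stub1. The cause of these changes was not tested beyond the scaling itself.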
